A study of Mus musculus with 15 samples.

Results

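The genes described here are the enzymes and mitochondrial carriers of the urea cycle, together with the liver enzymes that feed ammonia into it. They are Cps1, Otc, Ass1, Asl, Arg1, Nags, Slc25a15, Slc25a13, Gls2 and Sds, a list of 10 taken by name from the 23284 gene symbols of a mouse liver count table, and all 10 were in the table. RNA-seq libraries came from 15 samples in 3 groups. The 6 floxed tumours grew in mice with both Hmgb1 alleles flanked by loxP sites and no Cre named. The 6 Hmgb1-deleted tumours grew in mice that also carried Albumin-Cre, which deletes the gene in hepatocytes and bile duct cells and leaves it in other cells. Both tumour groups had received diethylnitrosamine, a liver mutagen, at 25 mg/kg by intraperitoneal injection on day 15 after birth. From week 8 they had also received carbon tetrachloride, a liver toxin, once a week over 15 weeks at 0.5 µl/g. The 3 normal livers came from C57Bl/6 mice with no treatment named, and the strain of the floxed mice is not given in the sources used here. No treated liver without tumour was analysed here, so tumour growth, drug treatment and strain cannot be told apart in any comparison with normal liver.

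The urea cycle turns toxic ammonia into urea and runs at full strength in hepatocytes. Carbamoyl phosphate is made from ammonia and passed to ornithine inside mitochondria, the resulting citrulline leaves for the cytosol, and aspartate brings in the second nitrogen before arginine is split into urea and ornithine. Most of these enzymes belong to hepatocytes around the portal vein, while glutamine synthetase captures leftover ammonia in a thin layer around the central vein.

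Total counts per library ranged from 18973246 to 30929442, and levels are given as CPM, a count divided by its library's total after TMM scaling, which puts all 15 libraries on one scale. Hmgb1, the targeted gene, was read first: it stood at 23.3, 28.0 and 31.8 CPM (lowest, median and highest) in floxed tumours and at 9.59, 15.1 and 17.8 CPM in Hmgb1-deleted tumours. These groups did not overlap, and Hmgb1 was lower in all 6 deleted tumours (log2 fold change -0.90 ± 0.14 SE, adjusted p = 0.005089, edgeR's quasi-likelihood test with Benjamini-Hochberg adjustment). Bulk tissue also holds cells that Albumin-Cre does not reach. In bulk RNA, fewer cells of a type and less RNA per cell cannot be told apart. Summed markers of bile duct cells, 8 of 8 of them in the table, ranged from 68.8 to 80.4 CPM in normal liver, from 62.7 to 1773 CPM in floxed tumours and from 207 to 6115 CPM in Hmgb1-deleted tumours. Most of that sum was Spp1, at 56.1 to 69.8, 42.0 to 1685 and 195 to 6024 CPM in the same order. Without Spp1 the other 7 summed to 10.5 to 14.3 CPM in normal liver, 14.5 to 87.7 CPM in floxed tumours and 11.1 to 91.1 CPM in deleted tumours. Summed proliferation markers (8 of 8) ranged from 19.8 to 21.2 CPM in normal liver, from 33.7 to 128 CPM in floxed tumours and from 38.3 to 173 CPM in deleted tumours. Lymphocyte markers (8 of 8) summed to 16.8 to 18.1, 24.1 to 77.9 and 29.7 to 66.9 CPM in the same order, and neutrophil markers (5 of 6) to 3.91 to 5.48, 5.41 to 38.5 and 10.8 to 18.4 CPM. Macrophage markers (8 of 8) summed to 274 to 370, 254 to 744 and 379 to 614 CPM. Endothelial markers (7 of 7) summed to 164 to 276, 191 to 445 and 133 to 277 CPM. Stellate cell and fibroblast markers (8 of 8) summed to 223 to 288, 175 to 1343 and 208 to 480 CPM. Floxed tumour 5 held the highest endothelial and stellate sums, 445 and 1343 CPM. The summed hepatocyte markers (9 of 10) were abundant in every library. They ranged from 140723 to 169272 CPM in normal liver, 172909 to 392734 CPM in floxed tumours and 103096 to 231204 CPM in deleted tumours. Every floxed tumour thus lay above every normal liver. Alb was the largest part, with means of 95750, 173357 and 101139 CPM in the same order. Of the 9 markers, 5 had a positive log2 fold change in floxed tumours against normal liver. Apob, Ttr, Serpina1c and Hnf4a had lower means there. The part of these shifts in the results below was not tested.

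In floxed tumours 9 of the 10 genes were lower than in normal liver at an adjusted p under 0.05, all but Arg1, where 23.8% of 13784 tested genes were lower. The median log2 fold change of the 10 was -1.62, against 0.06 for all tested genes. In Hmgb1-deleted tumours 4 of the 10 were lower than in normal liver, Cps1, Nags, Slc25a15 and Slc25a13, where 16.6% of tested genes were lower. The median of the 10 was -1.20 there, against 0.05 for all tested genes. Between the tumour groups 0 of the 10 passed in edgeR's quasi-likelihood test, where 7.78% of 13433 tested genes changed. None of the 10 passed in DESeq2, which called 1954 genes, or in limma voom, which called 1511. One of them, Slc25a13, had an unadjusted p under 0.05 in edgeR, which 24.3% of all tested genes had. The median difference of the 10 between tumour groups was 0.39, against 0.02 for all tested genes. Both comparisons with normal liver share the same 3 normal livers.

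**Figure D1:**
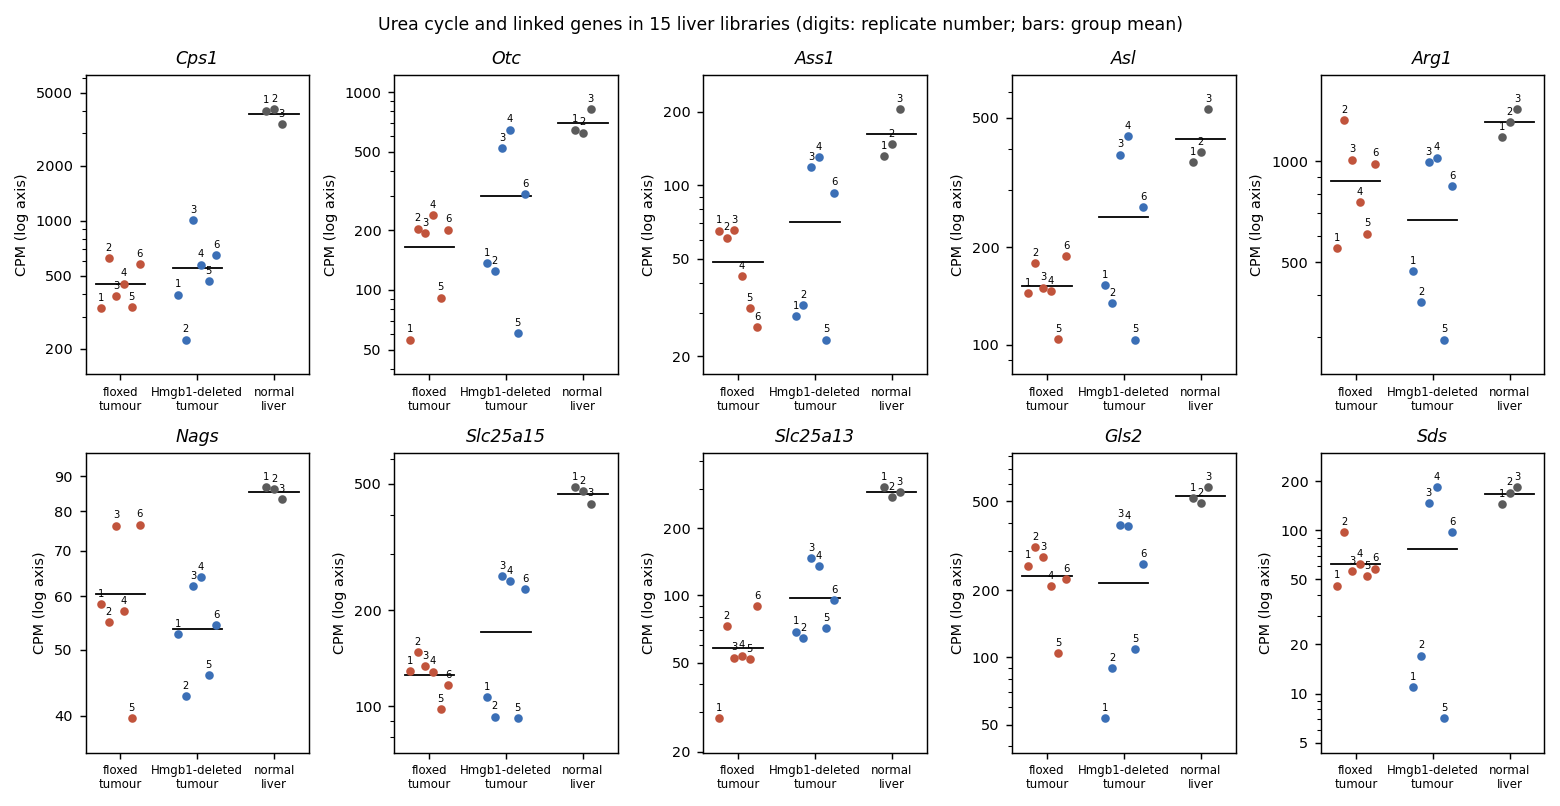
CPM on a log axis (vertical) of the 10 urea cycle and linked genes in each library, by group (horizontal). Points are libraries, marked with their replicate number, and horizontal bars are group means over 6, 6 and 3 libraries. Cps1 in all 12 tumours lies far below normal liver, and for all 10 genes Hmgb1-deleted tumours 3, 4 and 6 are the highest 3 of their group.

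Cps1 encodes carbamoyl phosphate synthetase, the mitochondrial enzyme that takes up ammonia in the first step of the cycle. Its level was 3365, 3995 and 4071 CPM in the 3 normal livers. In floxed tumours the lowest, median and highest values were 335, 421 and 628 CPM, and in Hmgb1-deleted tumours 224, 521 and 1006 CPM. No tumour came near a normal liver: the highest, deleted tumour 3, held 26.4% of the normal mean. Cps1 was 8.36-fold lower in floxed tumours (454 ± 125 against 3811 ± 388 CPM, mean ± SD, n = 6 and 3) at an adjusted p of 1.177e-05 in edgeR's test. It was 6.83-fold lower in Hmgb1-deleted tumours (553 ± 267 CPM, n = 6; adjusted p = 0.001714, edgeR). The difference between the tumour groups was 0.30 on the log2 scale, with a 95% interval from -0.31 to 0.92 (adjusted p = 0.5996, edgeR).

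Nags encodes N-acetylglutamate synthase, which makes the obligate activator of the Cps1 enzyme. Its change was the smallest of the 9 that passed. Normal livers held 83.4, 86.1 and 86.7 CPM, floxed tumours 39.7, 57.7 and 76.4 CPM (lowest, median, highest) and deleted tumours 42.7, 53.6 and 64.0 CPM. All 12 tumours were below all 3 normal livers. The fold changes were 1.41-fold lower in floxed tumours (adjusted p = 0.04726, edgeR) and 1.58-fold lower in Hmgb1-deleted tumours (adjusted p = 0.005812, edgeR). The first of these calls was lost without any one of floxed tumours 1, 2 or 4 or of the normal livers, where its adjusted p was 0.0727 to 0.118. An antisense transcript lies over 443 bases of the gene's exons in the annotation, and the strand setting of the counts is not given in the sources used here. Cps1 and the gene for its activator therefore changed by very different amounts in the same libraries, from 5.89% to 26.4% of the normal mean for Cps1 and from 46.5% to 89.5% for Nags.

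Otc encodes ornithine transcarbamylase, the mitochondrial enzyme that joins carbamoyl phosphate to ornithine. Normal livers held 624, 646 and 820 CPM. The floxed tumours ran from 56.1 CPM (tumour 1) over a median of 198 to 238 CPM, all below normal liver, and Otc was 4.22-fold lower there (adjusted p = 0.001581, edgeR). The deleted tumours spanned a wider range, 60.7, 221 and 646 CPM. Deleted tumour 4 lay inside the normal range, while tumour 5 lay with the lowest floxed tumours. Against normal liver the deleted tumours differed by -1.22 ± 0.62 SE on the log2 scale (adjusted p = 0.149, edgeR), and 5 of the 6 were below every normal liver. Between tumour groups the difference was 0.87, with a 95% interval from -0.19 to 1.93 (adjusted p = 0.348, edgeR).

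Ass1 encodes argininosuccinate synthase, the cytosolic step that adds the nitrogen of aspartate to citrulline. The mouse genome holds Gm5424, a processed copy of this gene with 1 exon where the Ass1 transcript has 16, and its count row bears on how Ass1 can be read. Over 1239 coding bases the 2 sequences differ at 6 positions, T399C, T429C, A520T, G656C, T1011C and C1143T. Positions count from 1 at the first base of the start codon, with the Ass1 base first. A stretch of 120 coding bases (354 to 473, 5′ to 3′, from the GENCODE transcripts of GRCm38) shows how little separates them, with the differing bases in capitals.
Ass1: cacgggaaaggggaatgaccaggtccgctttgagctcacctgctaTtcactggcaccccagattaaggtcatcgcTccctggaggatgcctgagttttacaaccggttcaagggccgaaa
Gm5424: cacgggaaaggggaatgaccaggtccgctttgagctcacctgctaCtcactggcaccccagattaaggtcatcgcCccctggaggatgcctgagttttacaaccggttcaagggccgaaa
The longest run with no difference is 398 bases, so a read inside it has no base that tells the gene from the copy. Over the 15 libraries 366263 counts stood on Gm5424 and 26305 on Ass1. The Ass1 row thus held 5.19% to 11.2% of the pair's counts in each library. How reads that match both places were treated is not given in the sources used here, so Ass1 is given both as deposited and as the sum of the pair.

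The Ass1 row alone held 132, 147 and 205 CPM in normal livers, 26.3, 51.8 and 65.4 CPM in floxed tumours and 23.4, 62.9 and 130 CPM in deleted tumours. No tumour reached a normal liver. It was 3.33-fold lower in floxed tumours (adjusted p = 0.0008088, edgeR), and in deleted tumours the log2 difference from normal liver was -1.18 ± 0.54 SE (adjusted p = 0.1109, edgeR). The sum of Ass1 and Gm5424 was 2543, 2762 and 3512 CPM in normal livers, 395, 554 and 733 CPM in floxed tumours and 306, 835 and 1662 CPM in deleted tumours. As for the row alone, no tumour reached a normal liver. As a sum it was 5.26-fold lower in floxed tumours (adjusted p = 3.828e-05, edgeR) and 3.15-fold lower in deleted tumours (adjusted p = 0.04145, edgeR). The call in deleted tumours was thus made for the sum and missed for the Ass1 row, and the sum was chosen after the counts on Gm5424 had been seen. Between tumour groups the sum differed by 0.75 ± 0.43 SE (adjusted p = 0.3025, edgeR).

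**Figure D2:**
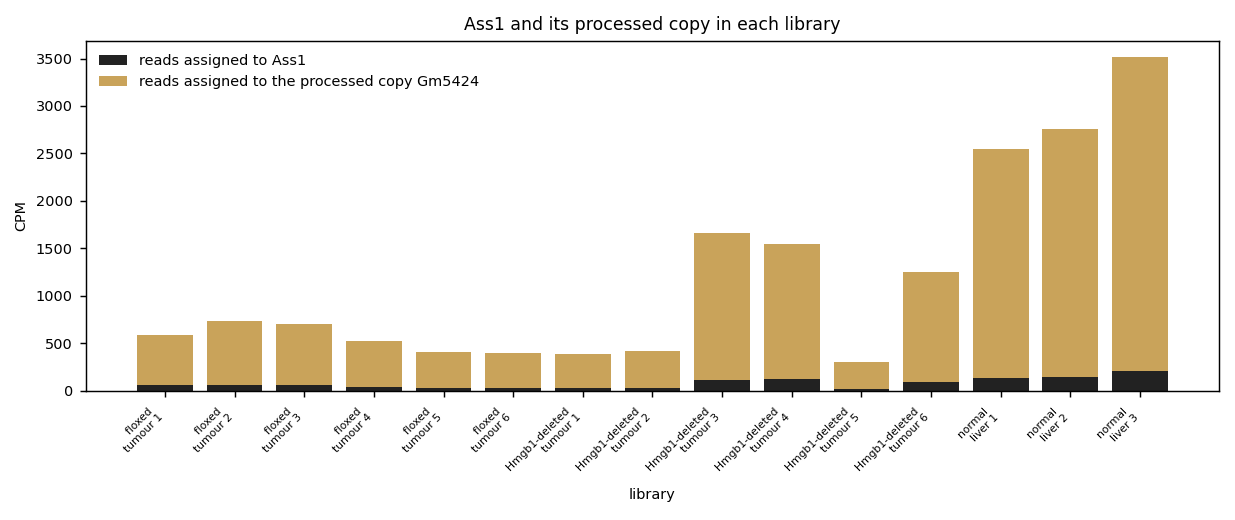
CPM (vertical, from 0) in each of the 15 libraries (horizontal), as stacked bars of reads assigned to Ass1 (dark) and to its processed copy Gm5424 (light). The dark part is a small share of every bar, and the whole bars of all tumours stay under those of the 3 normal livers.

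Asl encodes argininosuccinate lyase, which releases arginine and fumarate. Normal livers held 366, 393 and 532 CPM, floxed tumours 104, 148 and 187 CPM and deleted tumours 104, 209 and 439 CPM. Floxed tumours lay below every normal liver, while deleted tumours 3 and 4, at 386 and 439 CPM, lay inside the normal range. Asl was 2.83-fold lower in floxed tumours (adjusted p = 0.0002049, edgeR). For deleted tumours the log2 difference from normal liver was -0.80 ± 0.43 SE (adjusted p = 0.1739) and from floxed tumours 0.72 ± 0.33 SE (adjusted p = 0.207), both by edgeR.

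Arg1 encodes the liver arginase, which splits arginine into urea and ornithine and closes the cycle. It was the one gene of the 10 not called in floxed tumours. Normal livers held 1178, 1310 and 1430 CPM and floxed tumours 553, 870 and 1327 CPM, and floxed tumour 2, the highest, was inside the normal range while the other 5 were below it. The log2 difference was -0.58 ± 0.28 SE (adjusted p = 0.1088, edgeR), and without floxed tumour 2 it was -0.75 (adjusted p = 0.0377, edgeR). The 6 deleted tumours, at 295, 657 and 1026 CPM, were all below normal liver, with a log2 difference of -0.96 ± 0.39 SE (adjusted p = 0.08119, edgeR). Arg1 and Nags had the least negative fold changes of the 10 in floxed tumours, and Arg1, Gls2 and Nags were the 3 genes with a negative value between tumour groups. With library totals used without a scaling factor, the values of Gls2 and Nags turned to 0.033 and 0.046.

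Slc25a15 encodes the ornithine carrier of the inner mitochondrial membrane, which brings ornithine to Otc and lets citrulline out. Normal livers held 433, 475 and 487 CPM, and floxed tumours lay close together at 97.8, 129 and 148 CPM. Among deleted tumours, tumours 3, 4 and 6 stood at 257, 247 and 233 CPM and the other 3 at 91.9 to 107 CPM. All tumours were under the normal range. Slc25a15 was 3.70-fold lower in floxed tumours (adjusted p = 1.028e-05, edgeR) and 2.70-fold lower in deleted tumours (adjusted p = 0.01551, edgeR). The second call was lost without normal liver 1 (adjusted p = 0.0622, edgeR) or normal liver 2 (0.059).

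Slc25a13 encodes citrin, the carrier that exports aspartate from mitochondria for the Ass1 step. Its values were 276, 290 and 304 CPM in normal livers, 28.3, 53.3 and 89.4 CPM in floxed tumours and 64.5, 83.5 and 147 CPM in deleted tumours. Here too the groups of tumours lay wholly under normal liver, and floxed tumour 1 was the lowest of all. Slc25a13 was 4.96-fold lower in floxed tumours (adjusted p = 0.0001153, edgeR) and 2.96-fold lower in deleted tumours (adjusted p = 0.003476, edgeR). Of the 10 genes it had the smallest p between tumour groups, with a log2 difference of 0.75 and a 95% interval from 0.20 to 1.31 before any adjustment. After adjustment over all tested genes it did not pass (adjusted p = 0.1219, edgeR), and it passed with library totals used without a scaling factor (0.92, adjusted p = 0.0194), a setting that moved the median of all genes to 0.20.

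Gls2 encodes the liver glutaminase, which frees ammonia from glutamine in the same hepatocytes that run the cycle. Normal livers held 491, 519 and 578 CPM, floxed tumours 105, 241 and 312 CPM and deleted tumours 53.5, 186 and 394 CPM. Floxed tumour 5 and deleted tumours 1, 2 and 5 were the lowest, and no tumour reached the normal range. Gls2 was 2.29-fold lower in floxed tumours (adjusted p = 0.004947, edgeR). In deleted tumours the log2 difference from normal liver was -1.29 ± 0.57 SE (adjusted p = 0.1012, edgeR) in spite of separate ranges. With all 15 libraries in 1 fit, which shares 1 estimate of the spread, the floxed call was lost too (adjusted p = 0.0585).

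Sds encodes serine dehydratase, which releases ammonia from serine. It had the widest spread of the 10 in deleted tumours: tumours 3, 4 and 6 stood at 147, 183 and 97.2 CPM and tumours 1, 2 and 5 at 10.9, 17.1 and 7.09 CPM. Normal livers held 145, 170 and 183 CPM and floxed tumours 45.8, 57.3 and 97.8 CPM. Thus 2 deleted tumours lay inside the normal range and 3 lay far below every floxed tumour. Sds was 2.66-fold lower in floxed tumours (adjusted p = 0.0005122, edgeR), a call that was lost with all 15 libraries in 1 fit (adjusted p = 0.121). The deleted tumours differed from normal liver by -1.11 ± 0.90 SE (adjusted p = 0.3501, edgeR) and from floxed tumours by 0.32 ± 0.68 SE (adjusted p = 0.8259, edgeR). Exons of Sds share 360 bases with Plbd2 on the opposite strand in the annotation, and without the strand setting some of these reads cannot be assigned with certainty.

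**Figure D3:**
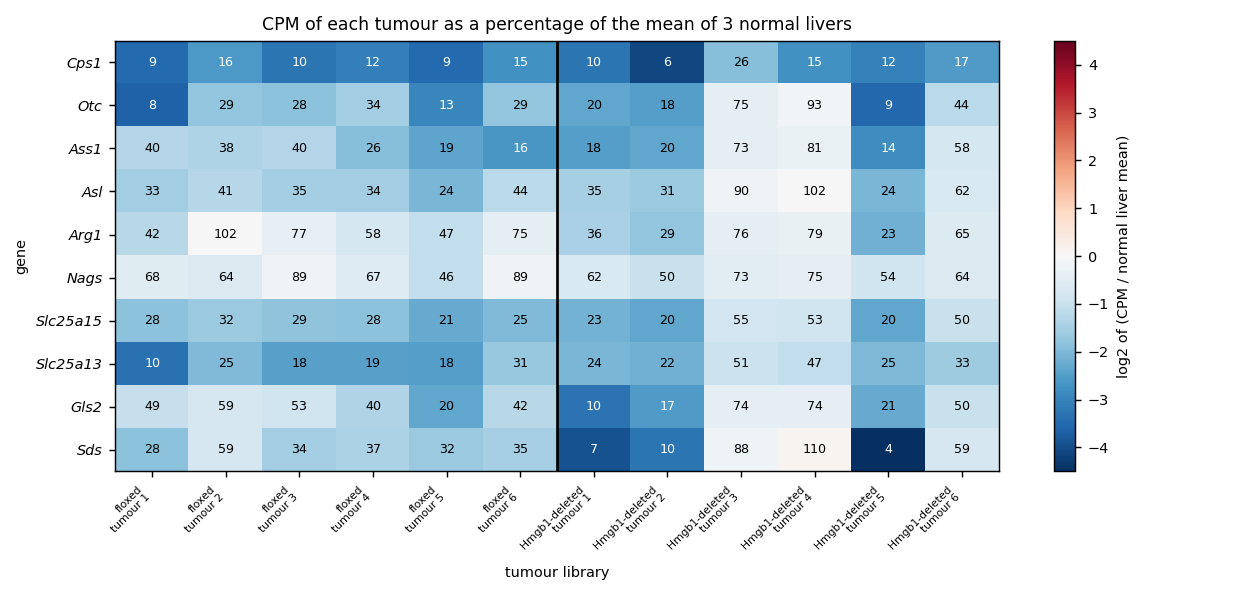
CPM of each of the 12 tumours (columns) as a percentage of the mean of 3 normal livers, for the 10 genes (rows). Colour gives the log2 ratio, blue below and red above the normal mean. The Cps1 row is dark in every column, at 5.89% to 26.4%, and Hmgb1-deleted tumours 3, 4 and 6 are paler than the other deleted tumours in most rows.

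For 8 of the 10 genes the SD of log2 CPM was larger among the Hmgb1-deleted than among the floxed tumours, and for Nags and Slc25a13 it was smaller. These spreads were not tested. Over the 10 genes the median level in a floxed tumour was 20.4% to 39.6% of the normal mean. In deleted tumours 3, 4 and 6 it was 73.9%, 76.7% and 54.0%, and in deleted tumours 1, 2 and 5 it was 21.3%, 20.0% and 20.2%. The range over libraries of the deleted group held the floxed range inside it. The same tumours differed in other respects: summed proliferation markers were 38.3, 48.3 and 58.3 CPM in deleted tumours 3, 4 and 6 and 162, 137 and 173 CPM in deleted tumours 1, 2 and 5. Summed bile duct markers were 276, 207 and 401 CPM in the former and 970, 6115 and 1148 CPM in the latter. Spp1 made up most of these sums, and the other 7 markers summed to 11.8, 11.7 and 11.1 CPM in the former and 27.1, 91.1 and 22.6 CPM in the latter. Stellate cell and fibroblast markers summed to 225, 261 and 208 CPM in the former and 480, 453 and 364 CPM in the latter. Endothelial markers summed to 246, 264 and 277 CPM in the former and 193, 133 and 166 CPM in the latter. Lymphocyte markers summed to 29.7, 40.8 and 41.6 CPM in the former and 43.0, 56.4 and 66.9 CPM in the latter. The ranges of the hepatocyte, macrophage and neutrophil sums overlapped. This split of the deleted tumours was read from the 10 genes themselves. Floxed tumours did not show the same order for proliferation. In floxed tumours 1 to 6 the median levels were 30.6%, 39.6%, 34.4%, 34.2%, 20.4% and 33.0% of normal. Their proliferation sums were 99.2, 90.9, 77.7, 128, 33.7 and 75.4 CPM, so floxed tumour 5 was lowest in both. The part of cell makeup and proliferation in these levels was not tested. Cps1 was the lowest of the 10 genes in deleted tumours 3, 4 and 6, at 26.4%, 15.1% and 17.1% of normal. The next lowest, Slc25a13, stood at 50.7%, 46.7% and 32.9% there. In deleted tumour 4 the highest were Asl, Sds and Otc, at 102%, 110% and 92.7%, while Slc25a15 stood at 53.1%.

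In each comparison with normal liver the ranges of the groups can be read directly. For 9 genes every floxed tumour was under every normal liver, where 23.4% of tested genes had such separate ranges with tumours lower. For 7 genes every deleted tumour was under every normal liver, namely Cps1, Ass1, Arg1, Nags, Slc25a15, Slc25a13 and Gls2, where 19.1% of tested genes had that pattern. The exceptions in the deleted group were Otc, Asl and Sds. Between tumour groups the ranges of all 10 genes overlapped, where 4.93% of tested genes did not.

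**Figure D4:**
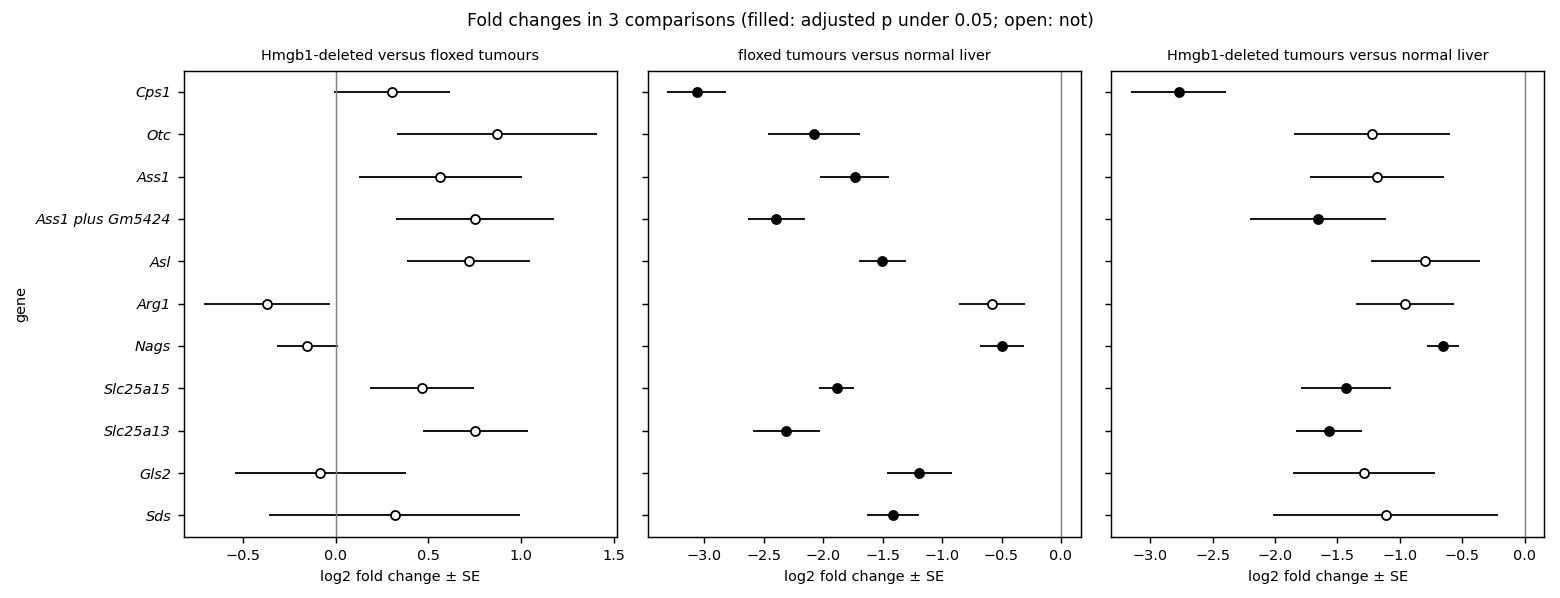
Log2 fold change with its SE (horizontal) of the 10 genes and of the Ass1 and Gm5424 sum (vertical) in 3 comparisons by edgeR. Filled points had an adjusted p under 0.05, open points did not. All points in the panels against normal liver lie left of 0, Cps1 farthest, and no point between the tumour groups is filled.

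Per kilobase of the longest coding transcript in the annotation, a scale on which genes can be set beside each other, the normal livers held 884 CPM of Arg1, 686 of Cps1, 233 of Otc, 206 of Gls2 and 178 of Asl. The carriers and Sds followed, with 136 for Slc25a15, 129 for Sds and 93.0 for Slc25a13, and Nags was lowest at 42.1. Ass1 stood at 95.3 as deposited and at 1733 as the sum with Gm5424. Its place in this order thus changes with how the copy is read. The order also depends on the length used. All annotated exons together cover 4831 bases for Asl and 1694 for Sds, against 2413 and 1288 in the longest coding transcripts.

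Some of the genes have a partner that does a related reaction outside the hepatocyte cycle or at another place in the lobule, and the ratio of the pair within a library uses no scaling factor. Ratios were taken as log2 of counts plus 1 and compared with exact two-sided permutation tests. Where counts are few, as for Arg2, the added 1 makes the ratio depend on depth. With 0.5 added instead, the log2 Arg1/Arg2 difference of floxed tumours from normal liver moved from -4.03 to -4.33. The p-values were adjusted by Benjamini-Hochberg over 15 comparisons, of which the 12 for 4 ratios are described. With 6 tumours and 3 livers the smallest possible p is 0.0238, and with 6 against 6 it is 0.00216.

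Slc25a12, or aralar, is the aspartate carrier of brain and muscle. It held 17.9 to 24.7 CPM in normal livers, 13.0 to 21.5 CPM in floxed tumours and 13.6 to 17.4 CPM in deleted tumours. A transcript of Adpgk matches Slc25a12 at 99.59% over 247 bases, and how reads from that stretch were treated is not given. Slc25a12 was lower in deleted tumours than in normal liver (log2 fold change -0.47 ± 0.12 SE, adjusted p = 0.01731, edgeR). In floxed tumours its log2 difference from normal liver was -0.44 ± 0.17 SE (adjusted p = 0.05046, edgeR). Slc25a13 counts per Slc25a12 count were 13.8 in normal liver, 3.54 in floxed and 6.11 in deleted tumours (geometric means). The ratio was 3.89-fold lower in floxed and 2.26-fold lower in deleted tumours than in normal liver, with no overlap (exact permutation p = 0.0238, adjusted 0.0397, for each). For this ratio, Sds to Sdsl and Arg1 to Arg2, calls against normal liver were lost on leaving out some single libraries. These were any normal liver, any floxed tumour but 2 and any deleted tumour but 1 and 5. The adjusted p was then 0.0536 to 0.0974. Fewer libraries raise the smallest possible p, and the exact permutation p was 0.0714 without 1 normal liver and 0.0357 without 1 tumour. The adjusted p also depends on the p-values of the other ratios. Between tumour groups the ratio of Slc25a13 to Slc25a12 was 1.72-fold higher in deleted tumours with overlapping ranges, and did not pass (exact permutation p = 0.0368, adjusted 0.0552). Without floxed tumour 2, deleted tumour 1 or deleted tumour 5 it passed (adjusted 0.0487).

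Sdsl, a homologue of Sds, held 10.4, 11.6 and 12.4 CPM in normal livers, 15.5, 18.2 and 27.7 CPM in floxed tumours and 10.8, 13.5 and 15.3 CPM in deleted tumours. Floxed tumours were thus above normal liver in all 6, by 1.69-fold (adjusted p = 0.007171, edgeR). Sdsl was lower in deleted than in floxed tumours (log2 fold change -0.52 ± 0.15 SE, adjusted p = 0.04686, edgeR). That call did not hold without any one of 10 tumours, floxed 1, 2, 3 and 6 and all 6 deleted, where its adjusted p was 0.0568 to 0.0915. Sds counts per Sdsl count were 14.4 in normal liver, 3.16 in floxed and 2.93 in deleted tumours. The ratio was 4.56-fold lower in floxed and 4.92-fold lower in deleted tumours than in normal liver (exact permutation p = 0.0238, adjusted 0.0397, for each), and deleted tumours ranged from 0.57 to 12.6. Between tumour groups it differed by -0.11 on the log2 scale (exact permutation p = 0.894).

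Arg2, the mitochondrial arginase of other tissues, was near the limit of detection in normal liver, at 0.04 to 0.12 CPM on 1 to 3 counts a library. It held 0.30, 0.80 and 11.5 CPM in floxed tumours, and the highest value, in floxed tumour 1, stood far from the other 5. Arg2 was called higher in floxed tumours by edgeR (adjusted p = 0.02033), but the call was lost without any one normal liver (0.0578 to 0.077), and no fold is given against so few counts. Arg2 passed the expression filter through its counts in floxed tumours alone, so a call of lower was hardly open to it. Deleted tumours held 0.04 to 0.42 CPM, too little to be tested there. A transcript of Vti1b is identical to Arg2 over 285 bases, and its row held 17075 counts against 348 for Arg2. Reads from that stretch cannot be assigned with certainty. The ratio of Arg1 to Arg2 counts was lower in every tumour of both groups than in every normal liver (exact permutation p = 0.0238, adjusted 0.0397, for each), with its size resting on those few counts. Between tumour groups its log2 difference was 1.76, higher in deleted tumours with overlapping ranges, and it did not pass (exact permutation p = 0.0433, adjusted 0.059). The ornithine carrier's relative Slc25a2 stayed at 0.12 to 0.59 CPM in all libraries and was not tested.

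Glul encodes glutamine synthetase, the central vein enzyme that binds the ammonia that the cycle has not taken up. Normal livers held 931, 943 and 1171 CPM, floxed tumours 58.5, 84.6 and 257 CPM and deleted tumours 145, 309 and 816 CPM. All 12 tumours lay below normal liver, with deleted tumour 4 the nearest. Processed copies of Glul have no count row, among them Glns-ps1, 96.8% identical over 1126 bases. How reads that match both were treated is not given. Glul was 8.62-fold lower in floxed tumours (adjusted p = 0.0002593, edgeR) and 2.79-fold lower in deleted tumours (adjusted p = 0.04278, edgeR). The second call was lost without any one of deleted tumours 1, 2, 3, 5 and 6 or of the normal livers (0.0563 to 0.124). Between tumour groups the log2 difference was 1.65 ± 0.49 SE (adjusted p = 0.05737, edgeR), and it passed without floxed tumour 6 (0.0261), deleted tumour 1 (0.041) or deleted tumour 5 (0.044), in DESeq2 (0.00666) and in voom (0.0116).

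The ratio of Cps1 to Glul sets the first periportal step beside the central vein enzyme. Its geometric mean was 3.76 in normal liver, 4.35 in floxed tumours and 1.67 in Hmgb1-deleted tumours, on counts. It was 2.60-fold lower in deleted than in floxed tumours, with overlapping ranges of 0.71 to 3.11 and 2.27 to 9.45 (exact permutation p = 0.0173, adjusted 0.0397). This call was lost on leaving out any one of floxed tumours 1, 3, 4, 5 and 6 or deleted tumours 2, 3, 4 and 6, with an adjusted p of 0.0536 to 0.0595. Floxed tumours and normal liver differed by 0.21 on the log2 scale (exact permutation p = 0.714), with Cps1 8.36-fold and Glul 8.62-fold lower there. Deleted tumours and normal liver differed by -1.17, with overlapping ranges, and the difference did not pass (exact permutation p = 0.0476, adjusted 0.0595). Between tumour groups the log2 difference was 0.30 for Cps1 (adjusted p = 0.5996, edgeR) and 1.65 for Glul (adjusted p = 0.05737, edgeR). Both were higher in deleted tumours and neither passed. The lower ratio in deleted than in floxed tumours thus went with higher Glul, not with lower Cps1.

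**Figure D5:**
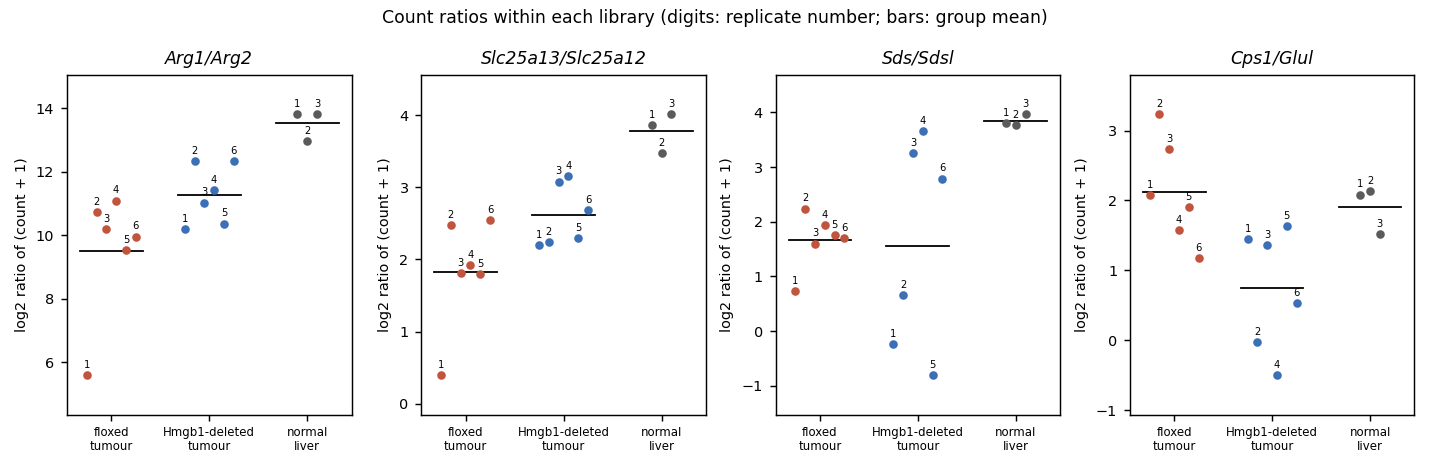
Log2 ratio of counts plus 1 (vertical) of 4 gene pairs in each library, by group (horizontal). Points are libraries marked with their replicate number, and bars are means over 6, 6 and 3 libraries. The first 3 ratios are lower in every tumour than in every normal liver, and Cps1/Glul is lowest in Hmgb1-deleted tumours 2 and 4.

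Other genes of nitrogen metabolism were read from lists. Of 21 tested genes of ammonia fixation and transport, 13 were lower and 2 higher in floxed tumours than in normal liver, where 23.8% of all tested genes were lower and 24.9% higher, with a median log2 fold change of -0.76. Among them were Car5a (-3.51 ± 0.27 SE), the mitochondrial carbonic anhydrase that supplies bicarbonate to Cps1, Sirt3 (-1.73 ± 0.15 SE), a mitochondrial deacetylase, and Aqp9 (-2.22 ± 0.21 SE), a liver channel for glycerol and urea. In deleted tumours 8 of 19 were lower and 1 higher than in normal liver (16.6% and 18.1% of all tested genes), with a median of -0.55, and Car5a was again low (-2.92 ± 0.66 SE, adjusted p = 0.01049, edgeR). Between tumour groups 2 of 19 passed, both higher in deleted tumours, where 4.45% of all tested genes were higher and 3.33% lower. They were Car5b (1.38 ± 0.24 SE, adjusted p = 0.006972, edgeR), the second mitochondrial carbonic anhydrase, and Sirt3 (0.78 ± 0.19 SE, adjusted p = 0.02578, edgeR). The Sirt3 call was lost without floxed tumour 1 (0.0536), deleted tumour 3 (0.0562) or deleted tumour 4 (0.0613).

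Of 26 tested enzymes that release nitrogen from amino acids, 16 were lower and 1 higher in floxed tumours than in normal liver, where 23.8% of all tested genes were lower and 24.9% higher, and 9 did not pass. Their median log2 fold change was -1.08. In deleted tumours 10 were lower, where 16.6% of all tested genes were, and 16 did not pass, with a median of -0.89. Aadat, an aminotransferase of the lysine and kynurenine pathways, was lower in floxed tumours, with a log2 fold change of -3.07 ± 0.22 SE. Amt, a subunit of the glycine cleavage system, was lower in both floxed (-2.11 ± 0.18 SE) and deleted tumours (-1.15 ± 0.15 SE). Cth, which cleaves cystathionine, was lower in floxed tumours (-2.45 ± 0.22 SE). Between tumour groups 4 were higher in deleted tumours and 1, Sdsl, was lower, where 4.45% and 3.33% of all tested genes were, with a list median of 0.09. The higher ones included Aadat (2.19 ± 0.24 SE, adjusted p = 0.0008778), Amt (0.97 ± 0.16 SE, adjusted p = 0.006275) and Prodh, proline dehydrogenase (2.39 ± 0.44 SE, adjusted p = 0.008654), all by edgeR.

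Of 15 tested genes that use arginine and ornithine, 6 were higher and 3 lower in floxed tumours than in normal liver, where 24.9% of all tested genes were higher and 23.8% lower, with a list median log2 fold change of 0.39. Arg2, which passed the expression filter through the floxed tumours alone, was among the 6. Aldh18a1, which makes the precursor of proline and ornithine from glutamate, was higher (3.02 ± 0.24 SE), while Oat, the central vein ornithine aminotransferase (-3.66 ± 0.48 SE), and Agmat, agmatinase (-1.79 ± 0.22 SE), were lower. In deleted tumours 5 of 14 were higher and 1 lower, against 18.1% and 16.6% of all tested genes, with a median of 0.56, and Srm, spermidine synthase, was among the higher ones (1.22 ± 0.15 SE, adjusted p = 0.001347, edgeR). Between tumour groups 2 of 14 passed, Agmat (1.26 ± 0.32 SE, adjusted p = 0.03032) and Oat (2.63 ± 0.69 SE, adjusted p = 0.03612), both higher in deleted tumours by edgeR. The Agmat call was lost without any one of floxed tumours 1, 2, 4, 5 and 6 or deleted tumours 3 and 4 (0.0515 to 0.0726). The Oat call was lost without any one of floxed tumours 1 to 5 or deleted tumours 3, 4 and 6 (0.0558 to 0.0893).

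A list of pyrimidine and asparagine genes held enzymes of synthesis, of salvage (Tk1, Uck2) and of pyrimidine breakdown (Dpyd, Dpys, Upb1). In floxed tumours 3 of its 12 genes were higher and 4 lower than in normal liver, where 24.9% of all tested genes were higher and 23.8% lower, so the share of higher genes was that of all genes. Ctps2, a CTP synthase, was higher (1.31 ± 0.18 SE), and the pyrimidine-degrading Dpyd (-2.92 ± 0.18 SE) and Dpys (-3.01 ± 0.28 SE) were lower. In deleted tumours 3 were higher and 2 lower, where 18.1% and 16.6% of all tested genes were. Asns, asparagine synthetase (2.83 ± 0.65 SE, adjusted p = 0.0108), was higher, a call lost without normal liver 2 (0.0523), and Dpys was lower (-1.57 ± 0.32 SE, adjusted p = 0.006603), both by edgeR. Between tumour groups 2 of 12 passed, both higher in deleted tumours, Dpys (1.45 ± 0.32 SE, adjusted p = 0.01792) and Dpyd (1.26 ± 0.33 SE, adjusted p = 0.03696), by edgeR. The Dpyd call was lost without any one of the floxed tumours or of deleted tumours 3, 4 and 6 (0.0544 to 0.0925).

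Among 19 transcription factors, receptors and coactivators known to act on urea cycle genes or liver metabolism, 15 were lower in floxed tumours than in normal liver, where 23.8% of all tested genes were, with a median log2 fold change of -0.76. These included Cebpa (-1.21 ± 0.17 SE), a factor that activates liver genes of nitrogen metabolism, Nr1h4 (-1.40 ± 0.15 SE), the bile acid receptor, and Nr5a2 (-1.32 ± 0.21 SE), a nuclear receptor of liver. In deleted tumours 8 of 19 were lower, against 16.6% of all tested genes, with a median of -0.72, and they included Nr5a2 (-1.37 ± 0.13 SE), Prox1 (-1.04 ± 0.18 SE), a hepatocyte fate factor, and Nr3c1 (-0.79 ± 0.14 SE), the glucocorticoid receptor. Between tumour groups 2 of 19 passed, both higher in deleted tumours, where 4.45% of all tested genes were higher. They were Onecut1 (1.82 ± 0.35 SE, adjusted p = 0.009573, edgeR), a liver homeobox factor, and Nr1h4 (0.86 ± 0.20 SE, adjusted p = 0.02111, edgeR). The Nr1h4 call was lost without deleted tumour 4 (0.0558).

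Genes were also read by lobule zone. Of 14 periportal genes 7 were lower and 3 higher in floxed tumours than in normal liver, where 23.8% of all tested genes were lower and 24.9% higher, with a median log2 fold change of -0.90. Of 17 pericentral genes 16 were lower, with a median of -2.69. Cyp2f2, a periportal cytochrome, was lower (-4.16 ± 0.31 SE), as was Cyp1a2, a pericentral one (-3.43 ± 0.37 SE). In deleted tumours 3 periportal genes were lower and 1 was higher, near the 16.6% and 18.1% of all tested genes, with a median of -0.55, and 7 pericentral genes were lower, with a median of -1.35. Between tumour groups Cyp2f2 (3.03 ± 0.40 SE, adjusted p = 0.001699) and Igf1 (1.52 ± 0.26 SE, adjusted p = 0.006654) were the 2 periportal genes higher in deleted tumours and Sdsl the 1 lower, by edgeR. Of the pericentral genes 4 of 17 were higher, where 4.45% of all tested genes were, with a list median of 1.46, among them Cyp27a1 (1.56 ± 0.28 SE, adjusted p = 0.008244, edgeR). The 2 lists were not tested against each other.

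For each gene the genes with the most similar pattern over the 15 libraries were found by the root mean square difference of centred log2 CPM, among 11815 candidates. The nearest to Slc25a15 was Aldh4a1, a proline breakdown enzyme, at a difference of 0.14 where Slc25a15 itself varied by 0.86 (SD, log2). The nearest to Asl was Ahcy, which hydrolyses S-adenosylhomocysteine, at 0.19 against an SD of 0.79. Sds lay nearest to Hal, the histidine ammonia lyase, at 0.52 against an SD of 1.43. Otc lay nearest to the bile acid enzyme Slc27a5 (0.39) and to Aqp9 (0.42) against an SD of 1.26. Cps1 lay nearest to Arhgef37 (0.39) against an SD of 1.35, and Arg1 to the alcohol dehydrogenase Adh1 (0.26) against an SD of 0.69. Ass1 had its copy Gm5424 as the second nearest gene (0.31 against an SD of 1.02). These distances describe libraries that share depth and group differences, and carry no test.

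Promoter entries of RefSeq (GRCm38.p6) were matched for 5 of the 10 genes, Ass1, Slc25a13, Slc25a15, Nags and Otc, and the 250 bases before each start were read. The counts rest on another build, mm9. The 2 promoters shown are those of Slc25a13, the gene with the largest fall in floxed tumours among the 5 by the rows as deposited (4.96-fold, against 5.26-fold for the sum of Ass1 and Gm5424), and of Nags, the gene with the smallest, each 5′ to 3′ on the gene's strand. Capitals mark CCAAT in the first (chr6:6217174-6217423, minus strand) and the GC box, GGGCGG or its reverse CCGCCC, in the second (chr11:102145263-102145512, plus strand).
Slc25a13: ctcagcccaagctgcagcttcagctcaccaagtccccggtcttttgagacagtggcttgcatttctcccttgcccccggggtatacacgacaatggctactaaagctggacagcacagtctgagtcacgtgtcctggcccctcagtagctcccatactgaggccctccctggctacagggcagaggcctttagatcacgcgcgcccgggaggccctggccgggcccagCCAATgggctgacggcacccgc
Nags: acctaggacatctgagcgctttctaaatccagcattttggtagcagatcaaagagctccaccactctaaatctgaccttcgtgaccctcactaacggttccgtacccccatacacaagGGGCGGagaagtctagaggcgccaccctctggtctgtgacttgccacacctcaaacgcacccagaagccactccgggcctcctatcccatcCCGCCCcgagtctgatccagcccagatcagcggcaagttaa
On both strands, CCAAT stood in 1 of the 5 genes, Slc25a13, and in 33.8% of 32851 promoter windows of the same length. GGGCGG stood in 3 of the 5, Ass1, Nags and Slc25a15, and in 32.7% of windows. The 5 genes had 6 windows, and a gene counted if any of its windows matched, while the shares are per window. The letters TTGCNNAA, used for C/EBP factors, stood in 9.6% of windows, CAAAGNNCA for HNF4 in 5.5%, TGTTTNC for FOX factors in 17.8% and TATAAA in 12.4%, and these were not found in the windows of the 5 genes. A match is a description of sequence only.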

How the data were processed

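Poly-A RNA of 15 mouse liver samples was sequenced from TruSeq RNA libraries, per the labels' protocols. The deposited values are raw read counts per gene symbol with no normalization. The submitters' processing notes name TopHat2 2.1.0 with Bowtie2 2.2.4, HTSeq 0.6.1, bcl2fastq 1.8.4 and the mouse build mm9. The gene models, the strand setting and what was done with reads matching several places are not given in sources used here.

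Groups came from the labels. No batch or litter is named there, nor whether each tumour had its own mouse, so p-values cover the spread among these samples, which may be technical. The members and lists were chosen with earlier results of these data known. In R 4.3.3, edgeR 4.0.16 filtered genes (filterByExpr), scaled libraries (TMM) and fitted the robust quasi-likelihood F test to each pair of groups over all genes. An adjusted p under 0.05 was a call. The script was tested on simulated data. The 95% intervals come from the SE, and levels are mean ± SD. Counting error allows up to 0.11 to 0.169 CPM at 0 counts. Named are all 10 genes, their partners, up to 3 genes per list and comparison with the smallest p, and the nearest genes in pattern, some of which are left out.

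The alternatives were other scalings and filters, DESeq2 1.42.0, voom in limma 3.58.1, a joint fit, the replicate number as a block, left-out libraries and, added after seeing the data, the sum of Ass1 and Gm5424. Ratios were tested in SciPy 1.17.1. One partner gene and its ratio are not reported here. No library repeated another: chi-square over genes, divided by its degrees of freedom, was at least 28.5 for any 2 libraries of a group. Adgre1 and Etnppl were matched by older symbols.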

Additional observations from a re-analysis of the deposited data

Results flagged for a closer look

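In 40 groups of 6 libraries, 6 held 1 library far from the other 5, and chance alone flags about 1 in 20 groups. Floxed tumour 1 gave 4 of them. It held Arg2 at 11.5 CPM where the next highest floxed tumour held 0.95, and Slc25a12 at 21.5 CPM where the next held 15.3. Its log2 ratio was 5.58 for Arg1/Arg2, where the nearest other was 9.53, and 0.40 for Slc25a13/Slc25a12, the lowest of its group. The ratios share counts with the single genes. Floxed tumour 2 held Sds at 97.8 CPM, against 62.2 in the next. Hmgb1-deleted tumour 1 held the lowest Hmgb1, 9.59 CPM, against 14.8 in the next. Groups of 3 livers were not examined in this way.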

How the results depend on the processing

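Counts of called genes among the 10 moved little with scaling, filter and tool in floxed tumours against normal liver (8 or 9), and the count was 7 with all 15 libraries in 1 fit. Over all genes the lower calls there were 3277 in the main fit and 2391 to 4311 in those settings. In deleted tumours against normal liver the count of 4 became 6 in voom, 5 in DESeq2 and 5 with the Ass1 sum. It was 3 without normal liver 1 or 2. Lower calls over all genes were 2295 in the main fit, 3363 in voom, 2728 in DESeq2 and 2299 with the Ass1 sum. Without normal livers 1 and 2 in turn they were 1075 and 1162. Libraries that stood apart in earlier results were also left out, chosen there by how near they were to normal liver, so these values are descriptions: 9 without Hmgb1-deleted tumours 3 and 4, and 10 without 3, 4 and 6. Over all genes the lower calls were 2706 and 3079 in the same order. Between tumour groups the count of 0 became 2 with unscaled library totals (Asl and Slc25a13, higher), where 982 genes were higher. It became 1 without deleted tumours 2 and 5 (Asl, higher), where 639 genes were higher. Without 3, 4 and 6 it became 2 (Gls2 and Sds, lower), where 464 genes were lower. The main fit had 598 genes higher and 447 lower. The causes of these shifts were not tested.

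Several log2 differences between tumour groups changed sign. With unscaled totals Nags became 0.046, Gls2 0.033 and Slc25a12 0.14. In voom Sds became -0.22 and Slc25a12 0.083. Without deleted tumours 3 and 4, Cps1 became -0.075, Otc -0.081, Ass1 -0.14 and Sds -0.93, and without 3, 4 and 6 the values were -0.33, -0.62, -0.79 and -2.41, with Asl at -0.23 and Slc25a15 at -0.38. Without deleted tumours 2 and 5, Gls2 became 0.24. On leaving out single libraries Gls2 ranged from -0.35 to 0.12, Sds from -0.16 (without deleted tumour 4) to 0.56 and Slc25a12 from -0.073 to 0.076.

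Over all genes, 1045 changed between tumour groups, 1954 in DESeq2, 1629 with all 15 libraries in 1 fit, 422 without deleted tumours 3 and 4, and 589 (without deleted tumour 4) to 1054 on leaving out single libraries. In deleted tumours against normal liver 4787 changed, and 2113 to 4912 on leaving out single libraries, with 2113, 2227 and 3109 without normal livers 1, 2 and 3. The split of higher against lower calls between tumour groups was 598 to 447, and 982 to 257 with unscaled totals. Against normal liver it was 3437 to 3277 in floxed tumours, and 4363 to 2509 with upper-quartile factors. In deleted tumours it was 2492 to 2295, 3390 to 1578 with upper-quartile factors and 2969 to 1062 with unscaled totals. Upper-quartile factors moved the median of all genes to 0.23 and 0.21 in these 2 comparisons, and unscaled totals to 0.15 and 0.33.

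The labels do not say whether the replicate numbers pair the samples. Deviations of same-numbered libraries correlated between -0.26 and 0.23, which does not settle it. With the replicate block, 0 of the 10 genes passed between tumour groups, where Sds turned to -0.59 and 860 genes changed. Against normal liver, on numbers 1 to 3, the block called 8 of the 10 in floxed tumours, where 6579 genes changed. In deleted tumours it called 6 of the 10, and 3055 genes changed, against 3679 on the same libraries with no block.

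Ratio calls against normal liver were lost on leaving out most single libraries, with adjusted p from 0.0536 to 0.0974. Fewer libraries raise the smallest possible p, and the adjusted p also depends on the other ratios. Left-out single libraries gave these ranges of log2 differences in floxed tumours against normal liver: Arg1/Arg2 -4.35 to -3.25, Slc25a13/Slc25a12 -2.11 to -1.67, Sds/Sdsl -2.30 to -2.002 and Cps1/Glul -0.016 to 0.40. In deleted tumours against normal liver they were -2.55 to -2.05, -1.33 to -1.06, -2.72 to -1.83 and -1.36 to -0.92 in the same order. Between tumour groups they were 0.98 to 2.08, 0.50 to 0.93, -0.53 to 0.36 and -1.57 to -1.13. Without deleted tumours 2 and 5, the differences from normal liver lost their calls at -2.30 (Arg1/Arg2), -1.003 (Slc25a13/Slc25a12) and -1.48 (Sds/Sdsl), Cps1/Glul lost its call between tumour groups at -1.41 and Sds/Sdsl turned to 0.70 there. Without deleted tumours 3, 4 and 6 the same values were -2.58, -1.54, -3.98 and -1.10.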
